A study of Mus musculus with 8 samples.

Results

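Blood clotting factors, their inhibitors, the enzymes of fibrin breakdown, the kinin precursors, the vitamin K cycle and the receptor that exports factors V and VIII were followed as 38 genes in liver RNA. The genes were chosen by symbol for what they do, with earlier results of these data known. All 38 were among the 15210 genes of the deposited table. RNA came from 8 female F1-TKm30 mice, NOG mice that carry the mutant clone 30 of the herpes simplex virus thymidine kinase under the mouse transthyretin enhancer and promoter, a control region active in hepatocytes. The transgene and the immunodeficient background were shared by both groups. MOCA, or 4,4'-methylenebis(2-chlorobenzenamine), was given at 0% to the control mice (n = 4) and at 0.05% to the others (n = 4); it is a chlorinated aromatic amine and polyurethane curing agent. Treatment lasted 4 weeks, and the route is not labelled. The mice were 17 or 21 weeks old, which mouse had which age is not labelled, and the treatment label names C57BL mice where the strain label names F1-TKm30.

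Most clotting proteins in blood plasma are made by hepatocytes and secreted. Contact factors and tissue factor start cascades of serine proteases that, with the cofactors V and VIII, generate thrombin, and thrombin turns fibrinogen into fibrin. Antithrombin, protein C and tissue factor pathway inhibitor restrain the cascade, and plasmin, made from plasminogen, dissolves the clot. Several of the proteases and protein C need a vitamin K-dependent carboxylation, and factors V and VIII leave the endoplasmic reticulum on a cargo receptor formed by LMAN1 and MCFD2.

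Values are TMM-scaled CPM, that is, reads scaled by the authors to library size with a composition factor, and 1 read was worth 0.0581 to 0.0648. Libraries held 15024945 to 17101844 reads on listed genes, and each MOCA library (at most 15970453) was shallower than each control library (at least 16077424). The 38 genes took 2.80% to 3.03% of the reads in control and 2.59% to 2.83% in MOCA livers. Their summed value was 27783 to 32521 in control and 24585 to 27672 in MOCA livers. Each MOCA mouse was thus below each control mouse, but only narrowly (27672 against 27783), and the shares of reads overlapped. The fibrin genes (Fga, Fgb, Fgg and F13b) held a large part of the sum and overlapped, at 10675 to 13974 in control and 10189 to 12574 in MOCA livers. The 15 hepatocyte markers were all present, and their summed value was 137628 to 157730 in control and 117570 to 135600.0 in MOCA livers, likewise without overlap. Of these markers 14 had a negative and 1 a positive log2 fold change (48.9% of all tested genes were negative). None was called by limma (0.666% of all tested genes). Only 2 of the 15, Trf and Apob, were lower in every MOCA mouse (4.96% of all tested genes). Alb, the largest part of the sum, overlapped, with control mice from 60489 to 75231 and MOCA mice from 57170 to 66297. In bulk tissue, fewer cells of a type and less RNA per cell cannot be told apart.

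Of 12008 genes tested, 48 were higher and 32 lower in MOCA livers (limma, Benjamini-Hochberg adjusted p under 0.05; these calls make up 0.666% of the genes). With columns scaled to equal sums the split was 131 and 38, and with upper quartile scaling 45 and 51. Of the 38 coagulation and fibrinolysis genes, 34 passed the filter on low values and 4 (Procr, Serpina5, Plat and Plaur) did not. Among the 34, 1 was called lower, against 0.266% of all tested genes, and 0 were called higher, against 0.4%. The called gene was F5, which encodes factor V. DESeq2 called 7 of the 34, against 3.54% of all tested genes, and edgeR called 1, against 0.675%. The 4 MOCA values lay below all 4 control values in 7 of the 34 (F12, Klkb1, Kng1, F2, F5, F13b and Proc; 4.96% of all tested genes) and above them in 1 (Lman1; 5.5% of all tested genes). An unadjusted p under 0.05 was found for 7 toward lower values (8.05% of all tested genes) and 1 toward higher values (9.42%). Of the 34, 26 had a negative log2 fold change, against 48.9% of all tested genes, and the median was -0.08 against 0.01 over all genes. These counts moved with the scaling: 20 were negative with equal column sums (37.3% of all genes) and 27 with upper quartile scaling (52.8%). When columns were scaled to an equal hepatocyte marker level, 10 were negative (15.4% of all genes), and the median of all genes moved to 0.18 and that of the 34 to 0.11. Under that scaling 2 of the 34 (F12 and F5) were lower in every MOCA mouse (0.65% of all tested genes) and 4 (F9, Serpina10, Mcfd2 and Lman1) were higher (17.5%), so the balance of genes without overlap turned.

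The promoters below belong to the 3 clotting factor genes with the largest decreases in mean value (F5, F12 and F2) and to Fgb and Fgg, 2 fibrinogen chains that varied together from mouse to mouse without a called difference between the groups. Each is the 250 bases before the RefSeq start site on GRCm38.p6 (mm10), written from the far end toward the start. Capitals mark a match, on either strand, to GTTAAT (the core of an HNF1 site), TTGCNNAA (a C/EBP-like sequence) or CAAAGNCCA (an HNF4-like sequence); no marked matches overlap.
F5 (chr1:164151585-164151834, plus strand): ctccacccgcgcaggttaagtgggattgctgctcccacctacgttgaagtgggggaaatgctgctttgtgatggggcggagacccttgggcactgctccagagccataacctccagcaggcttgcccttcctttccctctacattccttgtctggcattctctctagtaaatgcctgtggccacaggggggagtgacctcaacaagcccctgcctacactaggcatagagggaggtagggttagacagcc
F12 (chr13:55426805-55427054, minus strand): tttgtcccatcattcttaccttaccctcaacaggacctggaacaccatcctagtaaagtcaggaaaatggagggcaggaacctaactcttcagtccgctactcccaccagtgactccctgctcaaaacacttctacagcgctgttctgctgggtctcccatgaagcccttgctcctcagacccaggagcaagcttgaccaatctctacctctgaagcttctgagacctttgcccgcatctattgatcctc
F2 (chr2:91636458-91636707, minus strand): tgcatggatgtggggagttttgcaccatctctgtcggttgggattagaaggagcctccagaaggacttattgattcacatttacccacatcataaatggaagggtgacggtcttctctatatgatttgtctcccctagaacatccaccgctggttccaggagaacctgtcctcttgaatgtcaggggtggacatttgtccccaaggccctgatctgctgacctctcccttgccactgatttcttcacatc
Fgb (chr3:83049864-83050113, minus strand): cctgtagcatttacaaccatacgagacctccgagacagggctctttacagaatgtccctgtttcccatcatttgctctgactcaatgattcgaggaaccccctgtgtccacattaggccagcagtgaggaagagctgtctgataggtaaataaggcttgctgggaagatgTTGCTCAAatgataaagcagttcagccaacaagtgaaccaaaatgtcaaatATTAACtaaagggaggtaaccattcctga
Fgg (chr3:83007474-83007723, plus strand): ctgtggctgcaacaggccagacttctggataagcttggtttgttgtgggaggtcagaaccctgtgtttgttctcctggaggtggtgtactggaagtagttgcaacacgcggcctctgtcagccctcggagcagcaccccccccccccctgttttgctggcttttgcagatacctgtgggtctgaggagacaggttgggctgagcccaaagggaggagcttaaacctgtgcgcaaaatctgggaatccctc
Only the Fgb window among these 5 holds a match, 1 to GTTAAT and 1 to TTGCNNAA. A promoter was listed for 29 of the 38 genes, 30 windows in all. GTTAAT was found in 4 of the 30 windows (13.3%; F13b, Fga, Fgb and Proz) and in 6.43% of all 32851 promoters of this length. TTGCNNAA was found in 11 (36.7%) and in 9.56% of all promoters. The 11 were Fga, Fgb, Klkb1, F11, Kng2, Hrg, F9 and Ggcx, and Procr, Plaur and Serpina5, which did not pass the filter on low values. CAAAGNCCA was found in 1 (3.33%; Kng2) and in 1.7% of all promoters. A match is a description of the letters and not a site in use.

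Factor V is the cofactor with which factor Xa converts prothrombin to thrombin. F5 (chromosome 1, 164151835 to 164220277, plus strand) had values of 1196, 1218, 1384 and 1196 in the control mice and 968, 843, 918 and 823 in the MOCA mice. Every MOCA mouse was below every control mouse, and control replicate 3 stood above the other controls. The mean fell from 1249 ± 91.2 to 888 ± 67.3 (SD, n = 4 each), a change of -28.9%. On the log2(value + 1) scale the fold change was -0.49 (SE 0.09, 95% interval -0.68 to -0.30, limma adjusted p = 0.03). The edgeR test on the recovered reads gave an adjusted p of 0.031, and 13073 to 22435 reads per library stood behind these values. Leaving out 1 mouse at a time ended the call in 7 of 8 cases: the adjusted p was 0.0545, 0.0604, 0.106 and 0.0754 without control replicates 1, 2, 3 and 4, and 0.0849, 0.0644 and 0.0811 without MOCA replicates 2, 3 and 4. The log2 fold change in the 8 fits was -0.53 to -0.44. A listed noncoding gene, Gm16548, overlaps the first bases of F5, and whether reads were assigned by strand is not known here. Gm16548 had 5.18 to 6.31 in control and 3.74 to 6.16 in MOCA livers, far below F5. Other listed genes overlap F2 (Ckap5), F8 (Fundc2), Proz (Pcid2), Serpind1 (Pi4ka) and Ggcx (Mat2a), with the same limit. Mat2a was nearest in level to its partner, with a control mean of 79.0 where Ggcx had 164.

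**Figure D1:**
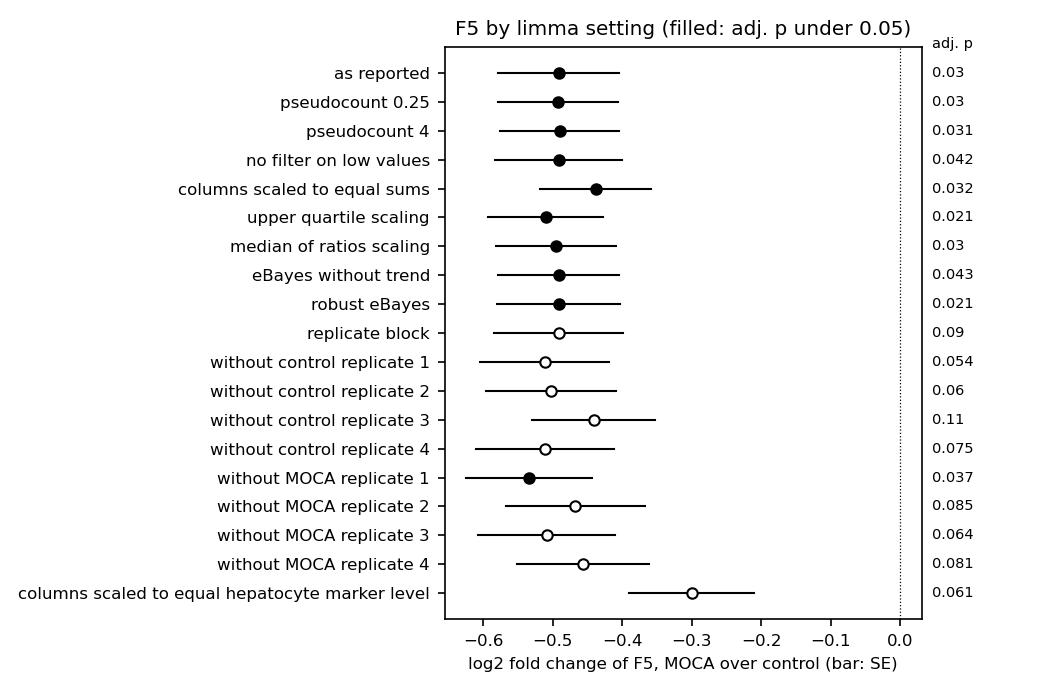
Log2 fold change of F5 (x axis, MOCA over control, bars 1 SE) in each limma fit (y axis), with the adjusted p beside it and filled points where it was under 0.05. The estimate lies between -0.53 and -0.44 in the fits that left out a mouse and at -0.30 with columns scaled to an equal hepatocyte marker level.

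F5 was also set against the hepatocyte markers, whose summed value did not overlap between the groups. With columns scaled to an equal geometric mean of the 15 markers, the F5 log2 fold change was -0.30 (SE 0.09, limma adjusted p = 0.061), where the median of all genes was 0.18, and every MOCA value still lay below every control value. The within-library ratio of F5 to a marker was lower in every MOCA mouse than in every control mouse for 5 of the 15 markers, higher for 0 and overlapping for 10. Per length, F5 stood to F10, the gene of factor X, as 1.04 ± 0.132 to 1 in control and 0.833 ± 0.0628 to 1 in MOCA livers, with control mice from 0.896 to 1.2 and MOCA mice from 0.764 to 0.893; this ratio was chosen after the values were seen.

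Factor VIII is the cofactor of factor IXa, is made in liver by sinusoidal endothelial cells, and circulates bound to von Willebrand factor. F8 (chromosome X, 75170344 to 75382738) had 47.8, 39.3, 46.2 and 37.3 in control and 38.2, 37.1, 39.5 and 39.5 in MOCA livers. The groups overlapped, and the log2 fold change was -0.13 (95% interval -0.33 to 0.06, limma adjusted p = 0.46), with a sign that turned to 0.05 under hepatocyte marker scaling. Vwf, the carrier, was 14.9 ± 1.49 in control and 15.7 ± 3.95 in MOCA livers, with MOCA mice from 10.2 to 19.6. The 17 endothelial markers held no limma call (0.666% of all tested genes). They summed to 789 to 883 in control and 754 to 799 in MOCA livers, so the groups overlapped. Of these markers 14 had a negative log2 fold change, against 48.9% of all tested genes. Stab2, a scavenger receptor of sinusoidal endothelium and the marker of smallest p, was 154 ± 14.6 and 129 ± 1.98 (log2 fold change -0.25, limma adjusted p = 0.138). Not all markers went with Stab2: Clec4g was 49.7 ± 1.38 and 49.6 ± 3.97. The 3 positive log2 fold changes were those of Lyve1 (0.04), Gpr182 (0.07) and Cdh5 (0.08). The part of endothelial content in the F8 and Vwf values was not tested.

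The export receptor had values in the other direction. Lman1, the lectin subunit of the cargo receptor (chromosome 18, 65980739 to 66002635), had 203, 225, 190.2 and 212 in control and 239.8, 242, 274 and 249 in MOCA livers. Every MOCA mouse was above every control mouse, MOCA replicate 3 highest. The log2 fold change was 0.27 (SE 0.08, 95% interval 0.11 to 0.44), which missed the threshold (limma adjusted p = 0.112). Lman1 passed it with equal column sums (0.0439), with hepatocyte marker scaling (0.0209) and with DESeq2 (0.0364). Equal column sums and hepatocyte marker scaling also moved the median of all genes up, to 0.05 and 0.18. The ratio of Lman1 to a hepatocyte marker was higher in every MOCA mouse for 8 of the 15 markers and overlapped for 7. Of the 15 markers 14 had a negative log2 fold change, so an unchanged gene would also tend to rise against them. Under hepatocyte marker scaling 17.5% of all tested genes were higher in every MOCA mouse. Mcfd2, the soluble subunit, was 156 ± 12.3 and 169 ± 5.55 (log2 fold change 0.11, 95% interval -0.04 to 0.27, limma adjusted p = 0.439). Per length, F5 stood to Lman1 as 3.71, 3.4, 4.58 and 3.55 to 1 in the control mice and 2.54, 2.19, 2.11 and 2.08 to 1 in the MOCA mice. These ratios do not depend on the library scaling and were chosen after the values were seen. With F5 lower and Lman1 higher in every MOCA mouse, the ratios could not overlap, so their separation adds nothing to the values of the genes.

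**Figure D2:**
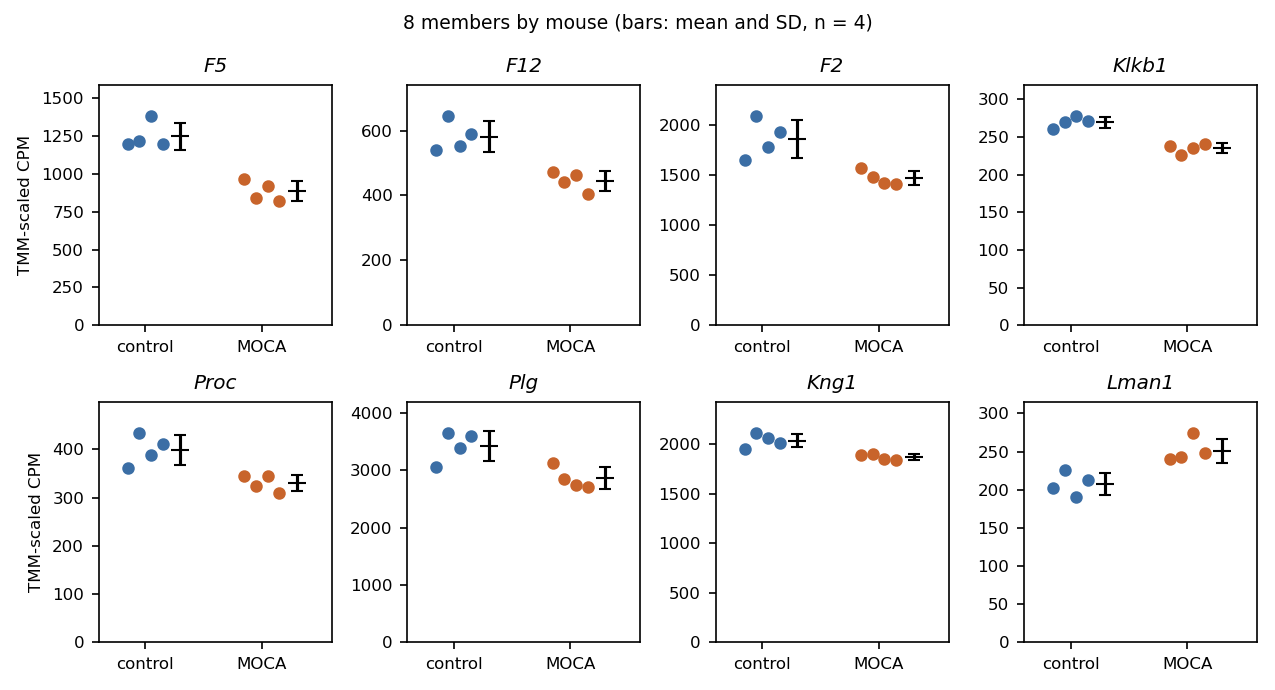
TMM-scaled CPM (y axes, starting at 0) of 8 genes in each control (blue) and MOCA (orange) mouse, with mean and SD beside the points. F5 and F12 show the widest gaps between the groups, Lman1 lies higher in all 4 MOCA mice, and Plg overlaps.

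In the contact and kinin group, factor XII and plasma prekallikrein activate each other on negatively charged surfaces, and kallikrein frees bradykinin from kininogen. None of the 5 genes was called by limma, against 0.666% of all tested genes, and 3 were lower in every MOCA mouse, against 4.96%. F12 (chromosome 13, 55417958 to 55426804) had 541, 646, 553 and 588 in control and 473, 442, 464 and 403 in MOCA livers. Its mean was 23.4% lower, a log2 fold change of -0.38 (SE 0.08, 95% interval -0.56 to -0.20, limma adjusted p = 0.0619). F12 passed with equal column sums (0.0348), upper quartile scaling (0.0422) and DESeq2 (0.00084), but under hepatocyte marker scaling its log2 fold change was -0.19 (limma adjusted p = 0.127), with every MOCA value still below every control value.

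Klkb1, prekallikrein (chromosome 8, 45266688 to 45294835), had 259.9, 269, 278 and 271 in control and 237, 226, 236 and 241 in MOCA livers. The groups did not overlap, at a log2 fold change of -0.20 (SE 0.06, limma adjusted p = 0.15; DESeq2 0.0412). Under hepatocyte marker scaling they overlapped, at -0.0060 (limma adjusted p = 0.97). F11, the gene of factor XI, lies 4632 bases from Klkb1 and had 52.6, 51.0, 35.7 and 42.7 in control and 60.9, 46.7, 56.1 and 53.3 in MOCA livers. The F11 groups overlapped, with a log2 fold change of 0.26 (95% interval -0.01 to 0.53, limma adjusted p = 0.308). Per length, Klkb1 stood to F11 as 2.11 to 3.32 to 1 in control and 1.66 to 2.07 to 1 in MOCA livers, without overlap; this ratio was chosen after the values were seen.

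The 2 kininogen genes are neighbours on chromosome 16 and alike in sequence, and reads of one may have been assigned to the other, so both values are uncertain. Kng1 had 1954, 2113, 2068 and 2015 in control and 1893, 1899, 1857 and 1838 in MOCA livers, without overlap (log2 fold change -0.12, SE 0.08, limma adjusted p = 0.455). Its sign turned to 0.07 under hepatocyte marker scaling. Kng2 was 249 ± 24.7 and 242 ± 11.8 (limma adjusted p = 0.857).

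None of the 3 vitamin K-dependent proteases was called by limma (0.666% of all tested genes), and differences among them were not tested. F2, prothrombin (chromosome 2, 91612397 to 91636457), had 1657, 2096, 1787 and 1930.0 in control and 1569, 1488, 1419 and 1416 in MOCA livers. Every MOCA mouse was below every control mouse, the mean was 21.1% lower, and the log2 fold change was -0.34 (SE 0.09, 95% interval -0.54 to -0.13). It missed the threshold with limma (adjusted p = 0.117) and edgeR (0.112) and passed it with DESeq2 (0.00568). Under hepatocyte marker scaling the groups overlapped, at -0.15 (limma adjusted p = 0.294). F10 had 371, 458, 389 and 411 in control and 371, 357, 347 and 363 in MOCA livers, a log2 fold change of -0.18 (limma adjusted p = 0.27) that became 0.01 under hepatocyte marker scaling. F9, the gene of factor IX, was 182 ± 11.4 and 181 ± 4.37, with a 95% interval of the log2 fold change from -0.15 to 0.14 (limma adjusted p = 0.982). Per length, F2 stood to F10 as 5.63 to 5.91 to 1 in the control mice and 4.92 to 5.33 to 1 in the MOCA mice. That ratio, chosen after the values were seen, varied little within each group and did not overlap between them. F2 itself also did not overlap. Among other ratios chosen in the same way, Proc to F5 overlapped, at 1.324 to 1.680 in control and 1.677 to 1.813 in MOCA livers. F8 to Lman1 did not, at 0.0834 to 0.116 and 0.0689 to 0.0762. How often the ratio of any pair of genes separates the groups was not examined.

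The initiators were far apart in level. F7, the gene of factor VII, had 85.7, 109, 94.1 and 118 in control and 94.6, 86.5, 78.0 and 93.5 in MOCA livers, and the groups overlapped (log2 fold change -0.20, 95% interval -0.43 to 0.03, limma adjusted p = 0.351; -0.010 under hepatocyte marker scaling). F7, F10 and Proz lie side by side on chromosome 8, with 1498 bases between F7 and F10 and 3907 between F10 and Proz, and all had negative log2 fold changes that missed the threshold. F3, tissue factor, the membrane receptor of factor VII, had between 0.987 and 2.69 in the 8 mice. It rested on 16 to 44 reads per library, with a log2 fold change of 0.24 and a 95% interval from -0.20 to 0.68.

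Fibrinogen is assembled from the chains of Fga, Fgb and Fgg, which lie within one cluster on chromosome 3 (Fga at 83026153 to 83033627). Fga had 5581, 6002, 4548 and 5417 in control and 5211, 5494, 5402 and 4321 in MOCA livers. Fgb had 3718, 3919.6, 3075 and 3414 in control and 3367, 3467, 3594 and 2897 in MOCA livers. Fgg had 3416, 3815, 2831 and 3221 in control and 3228, 3414, 3371 and 2761 in MOCA livers. For each chain the lowest control was replicate 3, the highest control was replicate 2 and the lowest MOCA mouse was replicate 4, and the groups overlapped.

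The log2 fold changes were -0.08 (SE 0.13) for Fga, -0.08 (SE 0.11) for Fgb and -0.05 (SE 0.12) for Fgg, with limma adjusted p of 0.806, 0.753 and 0.858. The 95% interval was -0.35 to 0.20 for Fga, -0.33 to 0.17 for Fgb and -0.31 to 0.21 for Fgg. Under hepatocyte marker scaling all 3 turned positive (0.12, 0.11 and 0.14), and Fgg was also at 0.00031 with equal column sums. Per length, Fga made up 41.6% to 43.3%, Fgb 18.2% to 19.3% and Fgg 38.2% to 39.6% of the sum of the chains in the 8 mice. The chains thus kept nearly the same proportions while their level varied. F13b, the carrier subunit of the fibrin crosslinking factor XIII, had 214.6, 237, 220.2 and 219.9 in control and 214.6, 192, 206 and 209 in MOCA livers. Its groups were apart only by further decimals of the first replicates (log2 fold change -0.12, limma adjusted p = 0.39), and its sign turned to 0.07 under hepatocyte marker scaling.

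**Figure D3:**
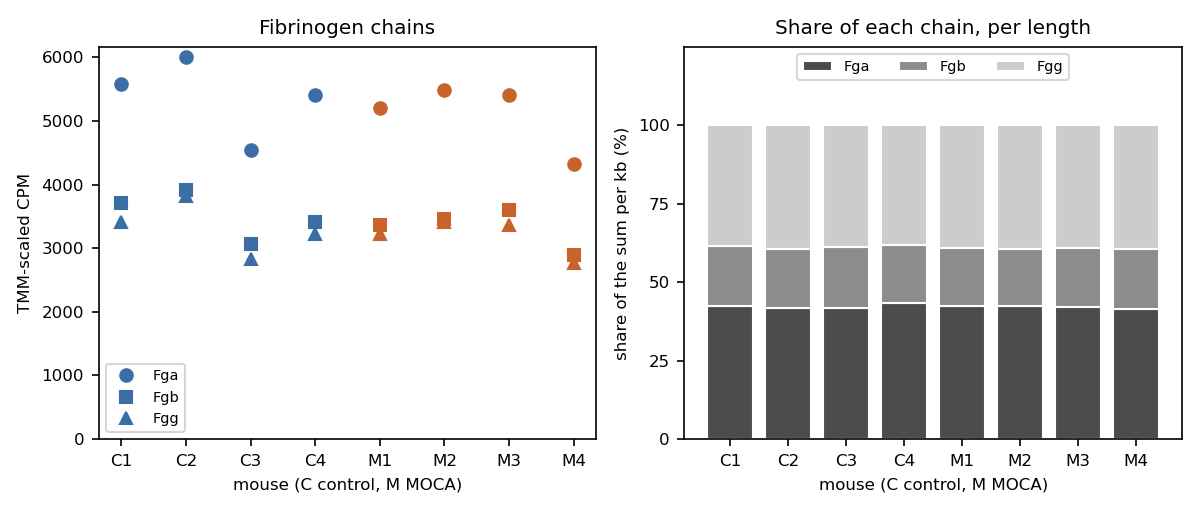
Left, TMM-scaled CPM (y axis) of the 3 fibrinogen chains in each mouse (x axis, control blue, MOCA orange); right, the share of each chain in their sum per kilobase. Control replicate 3 and MOCA replicate 4 are low for all 3 chains, while Fga stays between 41.6% and 43.3% of the sum.

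Among the anticoagulant proteins, protein C is activated by thrombin on thrombomodulin and, with protein S, inactivates factors Va and VIIIa. Proc (chromosome 18, 32123126 to 32139570) had 361, 434, 388 and 411 in control and 344, 324, 345 and 309.9 in MOCA livers, without overlap. Its log2 fold change was -0.27 (SE 0.08, 95% interval -0.43 to -0.10), which missed the threshold (limma adjusted p = 0.125) and passed it with DESeq2 (0.0289). Hepatocyte marker scaling moved Proc to -0.08 (limma adjusted p = 0.519), and the groups overlapped. Pros1, protein S, was 63.4 ± 4.70 and 57.7 ± 3.28 (limma adjusted p = 0.394), and Proz, protein Z, which helps inhibit factor Xa, was 278 ± 13.5 and 265 ± 12.2 (0.65). Thbd, thrombomodulin, was 3.63 ± 0.540 and 3.90 ± 0.736 (0.825). Procr, the endothelial protein C receptor, had 5 to 13 reads per library and was not tested.

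Antithrombin, encoded by Serpinc1, blocks thrombin and factor Xa. Serpinc1 (chromosome 1, 160978583 to 161002543) had 2039.6, 2662, 2244 and 2318 in control and 2126, 1954, 1958 and 1934 in MOCA livers. Control replicate 1 lay among the MOCA values, and the log2 fold change was -0.21 (95% interval -0.43 to 0.01, limma adjusted p = 0.301), and -0.020 under hepatocyte marker scaling. Serpind1, heparin cofactor II, was 539.9 ± 49.8 and 529 ± 18.6 (0.904), and Serpina10, the protein Z-dependent inhibitor, was 163 ± 17.3 and 179.8 ± 4.75 (0.387). Tfpi, which blocks the tissue factor complex, had 7.96, 7.66, 8.08 and 7.2 in control and 7.32, 7.86, 7.32 and 8.43 in MOCA livers. Its log2 fold change of 0.00022 (95% interval -0.20 to 0.20, limma adjusted p = 0.999) became -0.016 and -0.0031 under upper quartile and median of ratios scaling. Serpina5, protein C inhibitor, had 1 to 34 reads per library, from 0.0611 in MOCA replicate 4 to 1.98 in control replicate 1.

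In fibrinolysis, Plg, plasminogen (chromosome 17, 12378609 to 12419384), had 3063, 3651, 3391 and 3599 in control and 3138, 2845, 2748 and 2714 in MOCA livers. MOCA replicate 1 lay above control replicate 1, and the other 3 MOCA mice lay below all controls. The log2 fold change was -0.26 (SE 0.10, 95% interval -0.48 to -0.04), with an adjusted p of 0.221 by limma and 0.0462 by DESeq2. Hepatocyte marker scaling moved Plg to -0.07 (limma adjusted p = 0.639). The plasmin inhibitor Serpinf2 was 851 ± 67.3 and 789 ± 36.4 (limma adjusted p = 0.529). Hrg, histidine-rich glycoprotein, which binds plasminogen, was 1083 ± 128 and 941 ± 55.4 (0.323). Cpb2, which encodes the carboxypeptidase TAFI that protects fibrin from plasmin, was 305 ± 36.3 and 296 ± 13.4 (0.884).

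The plasminogen activators were near the lower end of the table. Plau, urokinase, had 1.74, 0.837, 1.36 and 1.08 in control and 0.764, 0.967, 0.583 and 1.16 in MOCA livers, on 9 to 30 reads per library (log2 fold change -0.26, 95% interval -0.61 to 0.08, limma adjusted p = 0.414). Plat, tissue plasminogen activator, had 0.523, 0.193, 0.370 and 0.6 in control and 0.255, 0.903, 0.583 and 0.305 in MOCA livers, on 3 to 14 reads. Plaur, the urokinase receptor, had 0.420 to 0.581 in control and 0.0636 to 0.428 in MOCA livers, on 1 to 10 reads. Plat and Plaur were not tested, and their groups overlapped.

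Neither gene of the vitamin K cycle was called by limma (0.666% of all tested genes). Ggcx, the gamma-glutamyl carboxylase, had 161, 174, 132 and 189.9 in control and 165, 164, 165 and 155 in MOCA livers (log2 fold change -0.0083, 95% interval -0.23 to 0.21, limma adjusted p = 0.977). The sign turned to 0.04 with equal column sums and 0.18 with hepatocyte marker scaling. Vkorc1, the vitamin K epoxide reductase that warfarin inhibits, had 149.6, 197, 166 and 167 in control and 168, 152, 150.3 and 169 in MOCA livers (log2 fold change -0.08, 95% interval -0.28 to 0.11, limma adjusted p = 0.662), which turned to 0.11 under hepatocyte marker scaling. In both genes the control mice spread over the whole MOCA range.

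**Figure D4:**
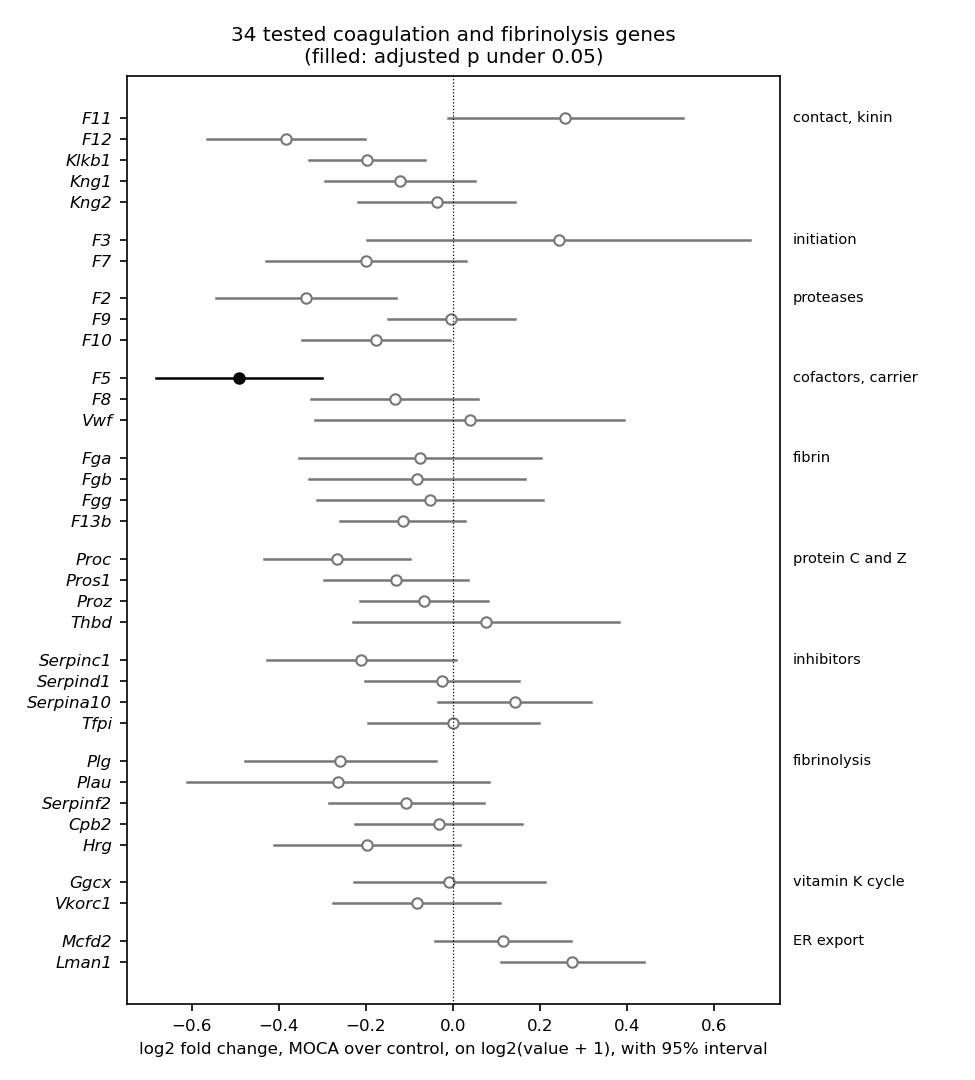
Log2 fold change (x axis, MOCA over control on log2(value + 1), bars 95% interval) of the 34 tested genes, grouped by role. F5 is the single filled point at -0.49, F12 and F2 lie at -0.38 and -0.34, and Lman1 lies at 0.27.

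Compared per length, with spliced length taken from GENCODE, the members covered a wide range of levels. In control livers Fga (2082 ± 236 per kb) and Fgg (1908 ± 235) were highest, and their means were closer together than the SD of either. Per length, Fga was nevertheless above Fgg within every control and MOCA mouse. Their shares of the sum of the fibrinogen chains were 41.6% to 43.3% for Fga and 38.2% to 39.6% for Fgg. Plg (1243 ± 96.6) and Kng1 (1115 ± 37.6) came next, followed by F2 (939 ± 94.9) and Fgb (927 ± 96.8). F2 and Fgb did not differ beyond their spread, while the means of Plg and Kng1 were further apart than the SD of either. F5 (168 ± 12.3) stood beside F10 (163 ± 15.1) in control livers, whereas in MOCA livers F5 was 119.5 ± 9.05 and F10 was 144 ± 4.07. F8 (4.36 ± 0.521), Tfpi (1.95 ± 0.0989) and Vwf (1.69 ± 0.169) stood lower, and Thbd, F3, Plau, Serpina5, Procr, Plaur and Plat were each below 1 per kb in control livers.

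**Figure D5:**
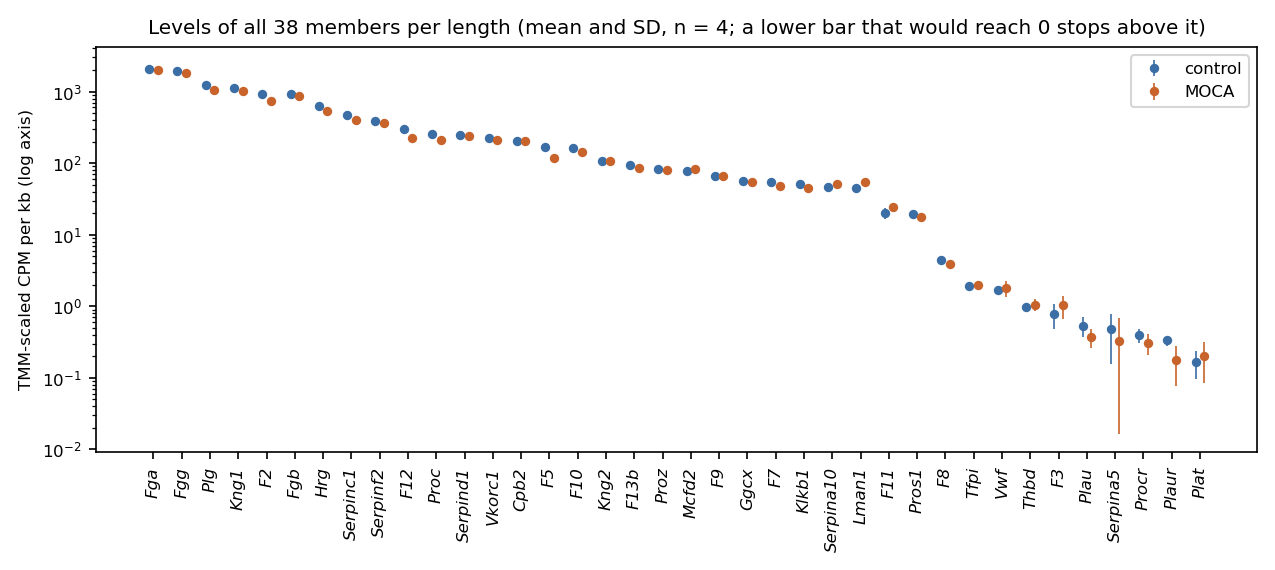
TMM-scaled CPM per kilobase of spliced length (y axis, log scale) of all 38 genes, ordered by the control mean, with mean and SD for control (blue) and MOCA (orange). Fga and Fgg are highest at 2082 and 1908 in control livers, and the 10 genes from F8 to Plat lie below 5.

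The spread between mice was also described. The coefficient of variation over the 4 mice was larger in control than in MOCA livers for 29 of the 34 tested genes (85.3%), against 52.5% of all tested genes. Its median over the 34 genes was 9.95% in control and 5.4% in MOCA livers, against 10.9% and 10.5% over all genes. For Ggcx it was 14.9% and 2.98%, and for Serpina10 10.6% and 2.64%. The genes share the same mice, so these are not independent observations, and the difference in spread was not tested.

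Other genes of haemostasis gave no call by limma (0.666% of all tested genes) or edgeR (0.675%). Of 42 named genes 29 were tested, 3 had an unadjusted p under 0.05 toward higher values (9.42% of all tested genes) and 6 toward lower values (8.05%), and DESeq2 called 3 (3.54%). Tfpi2, a second Kunitz inhibitor, was 39.98 ± 7.24 and 57.8 ± 5.96, higher in every MOCA mouse (log2 fold change 0.53, SE 0.12, limma adjusted p = 0.0726). Serping1, the C1 inhibitor that blocks factor XIIa and kallikrein, was 939.6 ± 81.6 and 771 ± 13.4, lower in every MOCA mouse (log2 fold change -0.28, limma adjusted p = 0.125). Anxa2, which with S100a10 binds plasminogen on cells, was 7.68 ± 0.755 and 9.70 ± 0.676 (limma adjusted p = 0.158).

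Among 16 transcription factors of liver plasma protein genes, limma called 0 (0.666% of all tested genes) and edgeR 0 (0.675%). A limma unadjusted p under 0.05 was found for 3 (17.5% of all tested genes), and DESeq2 called 1 (3.54%). Onecut1, also known as HNF6, was 21.6 ± 8.15 and 10.7 ± 2.37, lower in every MOCA mouse (log2 fold change -0.92, SE 0.22, limma adjusted p = 0.0797), with control replicate 3 at 33.6. Esr1, the estrogen receptor, was 53.2 ± 2.87 and 64.2 ± 8.02 (limma adjusted p = 0.185), and Foxa3 was 57.9 ± 2.58 and 45.8 ± 12.03 (0.273). Of 15 acute phase genes, among which fibrinogen is often counted, limma called 1 lower (0.266% of all tested genes) and 0 higher (0.4%). With edgeR 1 was called (0.675% of all tested genes) and with DESeq2 2 (3.54%). The limma call was Itih3, an inter-alpha-trypsin inhibitor chain, which fell by 0.67 on the log2 scale (SE 0.09, limma adjusted p = 0.00778). Itih4 was 2952 ± 319 and 2252 ± 167 (0.111), and Crp was 296 ± 39.1 and 356.5 ± 30.7 (0.197).

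Markers of other cell types in liver held no limma call, where 0.666% of all tested genes were called. Of 14 platelet and megakaryocyte markers 5 were tested, none was called, and the list summed to 18.8 to 23.7 in control and 16.8 to 23.4 in MOCA livers. Macrophage markers (12 tested, 0 called) summed to 392 to 479 and 407 to 539.6. Their log2 fold changes were 11 positive and 1 negative (48.9% of all tested genes were negative), with a median of 0.14. Their part in the coagulation values was not tested. Stellate cell and fibroblast markers (11 tested, 0 called) summed to 543 to 599 and 466 to 582, and bile duct markers (4 tested, 0 called) to 41.2 to 49.8 and 36.5 to 55.5. Blood cell markers, mainly globins, summed to 252 to 442 in control and 472 to 524 in MOCA livers, without overlap. Of these, 4 were tested and 0 called by limma, with 0 by edgeR and 3 by DESeq2 (3.54% of all tested genes). All 4 had an unadjusted p under 0.05 toward higher values (9.42% of all tested genes), and Hbb-bs was at 0 in 7 libraries. Hba-a1, an alpha globin gene, was 161 ± 33.5 and 259 ± 45.7 (log2 fold change 0.69, limma adjusted p = 0.0617). The part of blood content in the coagulation values was not tested.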

How the data were processed

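Liver RNA from 8 mice, 1 library each, was sequenced as directional libraries after ribosomal RNA depletion, per the labels' protocols. Trimmomatic 0.38, Bowtie2, RSEM and edgeR with build mm10 are named without role or order, per the submitters' processing notes; their strand setting is not stated in those notes. The authors deposited 1 table of normalised signal for each gene. Dividing each column by the worth of 1 read gave whole reads for 100% of values (tolerance 0.001), and the factors equal TMM scaling recomputed from the recovered reads, so the deposited values are TMM-scaled CPM. Replicates of a group differed by more than sampling noise (chi-square/df 12.5 to 26.9).

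Groups were compared with limma 3.58.1 (R 4.3.3) on log2(value + 1), lmFit and eBayes with trend, for the 12008 genes that reached 1 in 4 libraries; 3202 did not. Benjamini-Hochberg adjusted p-values under 0.05 made a call. The test was tested on simulated data. Count tests on the recovered reads, edgeR 4.0.16 (quasi-likelihood; 81 genes called) and DESeq2 1.42.0 (425), and scaling to 15 hepatocyte markers were chosen after seeing the data; other pseudocounts, filters, scalings, eBayes settings, a replicate block and leaving out each mouse were also tried. Values by mouse are given for genes called, with an unadjusted p under 0.05 or without overlap, and for 16 genes whatever their change; other lists show up to 3 genes of smallest p. The genes and lists were chosen with earlier results of these data known. Replicates are separate mice, per the labels. Positions and promoters are from RefSeq (GRCm38.p6, matching mm10) and spliced lengths from GENCODE M21, taking the longest APPRIS principal transcript or, without one, the longest coding transcript.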

Additional observations from a re-analysis of the deposited data

Results flagged for a closer look

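The highest or lowest of 4 mice stood apart from the other 3 in 4 of 76 groups of values (38 genes in 2 groups), where chance flags about 1 in 20. F5 was 1384 in control replicate 3, with the other controls at 1196 to 1218. Pros1 was 62.6 in MOCA replicate 3, with the next at 56.7 and the lowest at 55.6. Serpinc1 was 2126 in MOCA replicate 1, with the others at 1934 to 1958. Ggcx was 154.9 in MOCA replicate 4, with the others at 164 to 165.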

How the results depend on the processing

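Of the 34 tested genes, 1 was called (F5); this count was 3 with equal column sums (F5, F12 and Lman1), 2 with upper quartile scaling (F5 and F12), 0 with the replicate block, 7 with DESeq2 (F5, F12, F2, Klkb1, Plg, Proc and Lman1) and 0 to 1 in the fits leaving out a mouse. The 80 calls over all genes became 169 with equal column sums, 30 with the replicate block, 425 with DESeq2, 743 with hepatocyte marker scaling (712 higher, 31 lower) and 29 to 77 leaving out a mouse. With hepatocyte marker scaling 1 gene was called, Lman1 and not F5, and the median of the 34 genes became 0.11. The replicate numbers of the titles showed no pairing of the mice: same-numbered mice had correlations of -0.07, -0.0014, 0.04 and -0.04, and 0 of 4 controls correlated best with their own number. With 4 mice per group, these correlations cannot decide whether the mice were paired. With the block the adjusted p of F5 was 0.0896. With equal column sums 6 signs turned: Fgg was 0.00031, Ggcx 0.045, Kng2 0.016, F9 0.049, Serpind1 0.028 and Cpb2 0.020. Tfpi was -0.016 with upper quartile scaling, -0.0031 with median of ratios scaling and -0.0018 with DESeq2. With hepatocyte marker scaling 16 turned: Kng1 was 0.070, F10 0.015, F8 0.053, Fga 0.12, Fgb 0.11, Fgg 0.14, F13b 0.075, Ggcx 0.18, Vkorc1 0.11, Kng2 0.15, F9 0.19, Pros1 0.057, Proz 0.12, Serpind1 0.17, Serpinf2 0.084 and Cpb2 0.16. Leaving out a mouse gave -0.15 to 0.0022 for Fga, -0.13 to 0.016 for Fgg, -0.037 to 0.023 for Tfpi, -0.11 to 0.065 for Ggcx and -0.53 to -0.44 for F5. The cause of these changes was not tested. Low read numbers limit Procr, Serpina5, Plat, Plaur, Plau and F3, and 4 mice per group limit all comparisons.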
